A study of Mus musculus with 6 samples.

Results

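The genes described here encode RNA polymerase I and the proteins that assemble ribosomes. They are a list of 53 gene symbols, all of which had a row among the 46983 genes of the deposited count table. RNA had been sequenced from leukemia cells of mouse bone marrow, made by infecting sorted stem and progenitor cells (LSK cells: lineage-negative, positive for Sca-1 and c-Kit) with a retrovirus carrying the leukemia fusion gene MLL-AF9. The donors were C57BL/6J mice, either lacking Alox5 (Alox5-/-) or wild type (WT), and GFP+ cells had been transplanted into irradiated C57BL/6J recipients. Each genotype had 3 libraries, all untreated, and both genotypes carried MLL-AF9. The libraries of a genotype share 1 cell line name in the labels, which call them biological replicates and name no animals or cultures, so that the p-values measure the spread between these libraries, which may be technical. Alox5 encodes 5-lipoxygenase, the first enzyme of leukotriene synthesis.

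Ribosomes are built in the nucleolus. RNA polymerase I transcribes the long precursor of ribosomal RNA there, small nucleolar ribonucleoproteins (snoRNPs) guide its methylation and pseudouridylation, and assembly factors fold, cut and export the small (40S) and the large (60S) subunit. Growing cells, leukemia cells among them, put much of their transcription into this work, and Npm1, one of the genes below, is often mutated in human acute myeloid leukemia.

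Messenger RNA for this machinery was lower in Alox5-/- cells, by a small amount in each of its branches. Of the 53 genes, 48 fell, 0 rose and 5 were not called by edgeR's quasi-likelihood test, at an adjusted p under 0.05 over all genes tested. All 53 had passed the filter on low counts. Over the 13705 genes tested, 27.0% were called lower, 26.8% higher and 53.8% in either direction. The median log2 fold change of the 53 genes (Alox5-/- minus WT) was -0.29, which is 1.22-fold lower, beside a median of 0 over all genes tested. Among the 48 that fell, 37 differed by less than 1.3-fold and 11 by 1.3-fold or more, and the folds ran from 1.07 to 1.73. The libraries of the genotypes did not overlap for 49 of the 53 genes, against 60% of all genes tested.

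Each library gave nearly the same picture. Relative to each gene's WT mean, the median over the 53 genes was -0.283, -0.297 and -0.289 on the log2 scale in Alox5-/- replicates 1, 2 and 3, and -0.008, 0.005 and 0.009 in WT replicates 1, 2 and 3. Added together, the 53 genes held 9456, 9546 and 9442 CPM (reads of a gene relative to the library size, with TMM scaling between libraries) in Alox5-/- and 11700.0, 12019 and 11724 CPM in WT. As a share of all reads counted to genes the WT libraries spent 1.16% ± 0.0154 on them and the Alox5-/- libraries 0.962% ± 0.00125 (mean ± SD, n = 3). All Alox5-/- sums were below all WT sums, of which Ncl and Npm1 made up the largest parts.

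**Figure D1:**
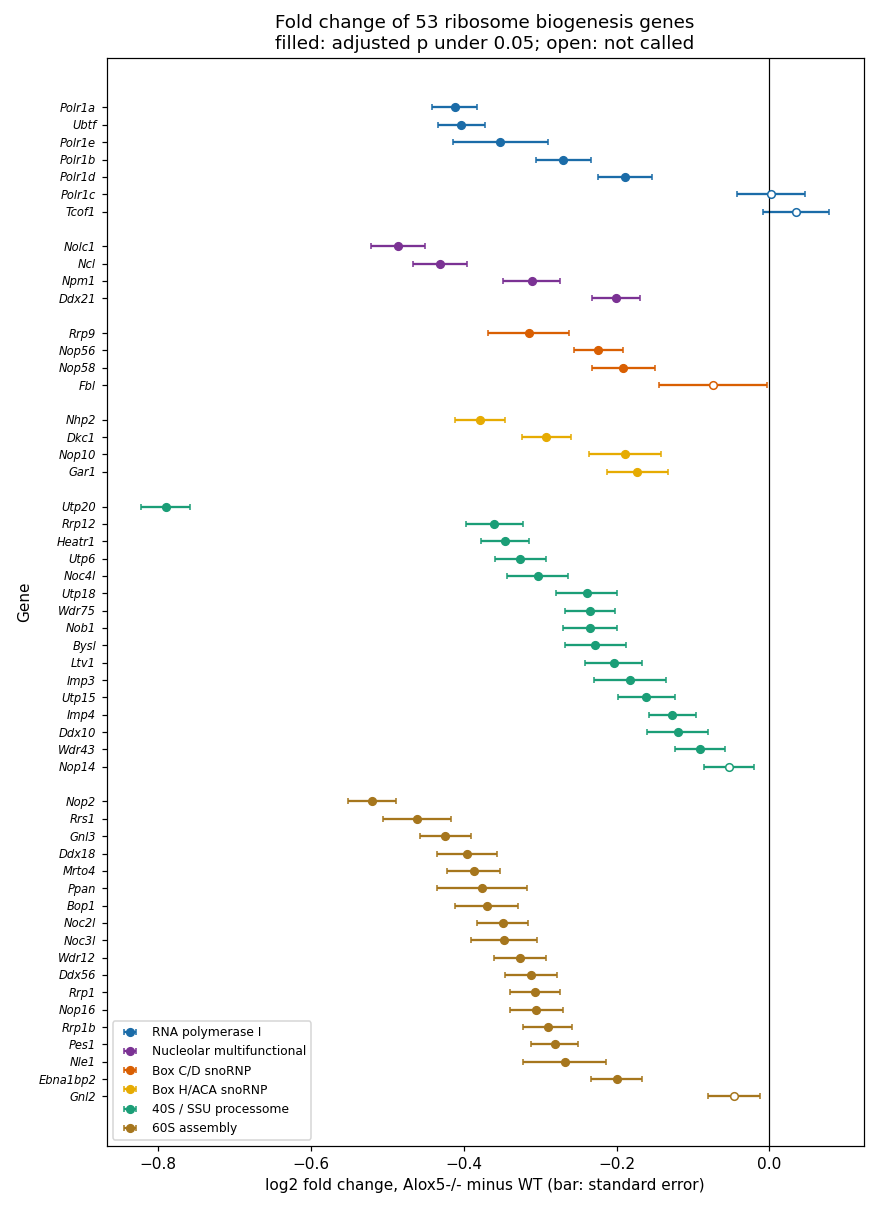
Log2 fold change of each of the 53 genes (x axis, Alox5-/- minus WT; bars are standard errors), with genes on the y axis coloured by role. Filled points are the 48 genes called lower, all left of 0; open points are the 5 genes not called (Tcof1, Polr1c, Fbl, Nop14 and Gnl2), and Utp20 lies farthest left at -0.79.

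Between 28985597 and 38695948 reads per library were counted to genes, and the least abundant of the 53 genes by CPM, Polr1e, still had 531 to 993 reads. Alox5 itself was at 65.6, 62.1 and 64.9 CPM in the Alox5-/- libraries and 102, 106 and 106 CPM in WT, in counts over the whole gene. Of the markers behind the LSK sort, Kit was at 136 ± 2.73 CPM in Alox5-/- and 159.7 ± 3.09 in WT, whereas Ly6a, which encodes Sca-1, was at only 0.763 ± 0.158 and 1.06 ± 0.169 CPM (mean ± SD, n = 3). Of all 8 stem and progenitor markers, 5 were tested, 2 rose (Cd34 and Flt3) and 2 fell (Kit and Cd48). Mature neutrophil markers moved with genotype: of 8, 5 fell, 1 (Ly6g) rose and 2 were not tested, and their summed level was 36.3 to 36.8 CPM in Alox5-/- and 73.1 to 78.8 CPM in WT. The summed level of 8 macrophage markers was 32.6 to 35.6 CPM against 42.3 to 45.5, nearly all of it from Adgre1, the 1 of 2 tested that fell (mean 32.9 CPM in Alox5-/- and 43.1 in WT). The sum of 8 endothelial and stromal markers was 207.5 to 211.9 CPM against 184 to 186.8, nearly all of it from Pecam1, which blood cells also express (196 against 174 CPM). Pecam1 and Pdgfrb (13.0 against 11.2 CPM) rose and Col1a1 was not called, while the more specific Cdh5, Kdr, Cxcl12 and Col1a2 were below the filter and at 0 to 0.0673 CPM in every library, and Lepr, also below the filter, was at 0.225 to 0.404 CPM in Alox5-/- and 0 to 0.167 in WT. Over all libraries the summed B and T cell markers reached 0.943 to 1.67 CPM and erythroid markers 0.673 to 0.891 CPM (1 gene tested in each list, not called), with Cd3e, Cd3g and Hba-a2 at 0. The part of these markers' cells in the results was not tested, and in bulk RNA fewer cells of a type and less RNA per cell cannot be told apart. Alox5-/- replicate 2 stood farthest from the others of its group, and without it 49 of the 53 genes were called lower.

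RNA polymerase I subunits and factors split into 5 genes that fell and 2 that were not called. Polr1a, the largest, catalytic subunit, was at 249.8, 247 and 249.9 CPM in the WT libraries and at 189.7, 186 and 185 CPM in Alox5-/-. Its lowest WT library stood well above its highest Alox5-/- library, and the level fell by 0.41 on the log2 scale (SE 0.03, edgeR adjusted p = 3e-08), or 1.33-fold. Ubtf, the HMG-box factor that holds ribosomal DNA in its active form, went from 260.1, 256 and 259 CPM in WT to 196, 199 and 191 CPM in Alox5-/-, a fold change of -0.40 (log2, SE 0.03, edgeR adjusted p = 5.29e-08). The groups of Ubtf did not overlap either, and its fold change was close to that of Polr1a.

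Polr1b, the subunit that completes the catalytic centre with Polr1a, had 114, 119 and 117 CPM in WT and 97.8, 93.3 and 99.4 CPM in Alox5-/- (-0.27 on the log2 scale, edgeR adjusted p = 1.47e-05). For Polr1e, a subunit specific to RNA polymerase I, the values were 25.1, 24.9 and 26.0 CPM in WT and 20.8, 18.2 and 20.7 CPM in Alox5-/- (-0.35, SE 0.06, edgeR adjusted p = 0.000201). In both, all 3 Alox5-/- libraries were below all 3 WT libraries. Polr1d and Polr1c encode a pair of subunits that RNA polymerase I shares with RNA polymerase III, and of the pair only Polr1d was called. Polr1d went from 131, 129 and 138 CPM in WT to 118, 116 and 114 CPM in Alox5-/- (-0.19, edgeR adjusted p = 0.000358). Polr1c stood at 55.3, 53.7 and 55.7 CPM in WT and 57.0, 51.6 and 56.4 CPM in Alox5-/-, with overlapping groups (0.002, SE 0.04, edgeR adjusted p = 0.968). The difference between these 2 subunits was not tested. Tcof1, which encodes treacle, a nucleolar protein needed for ribosomal RNA transcription, also overlapped between genotypes: 223, 202 and 221 CPM in WT and 215, 233 and 214 CPM in Alox5-/- (0.035, SE 0.04, edgeR adjusted p = 0.522).

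**Figure D2:**
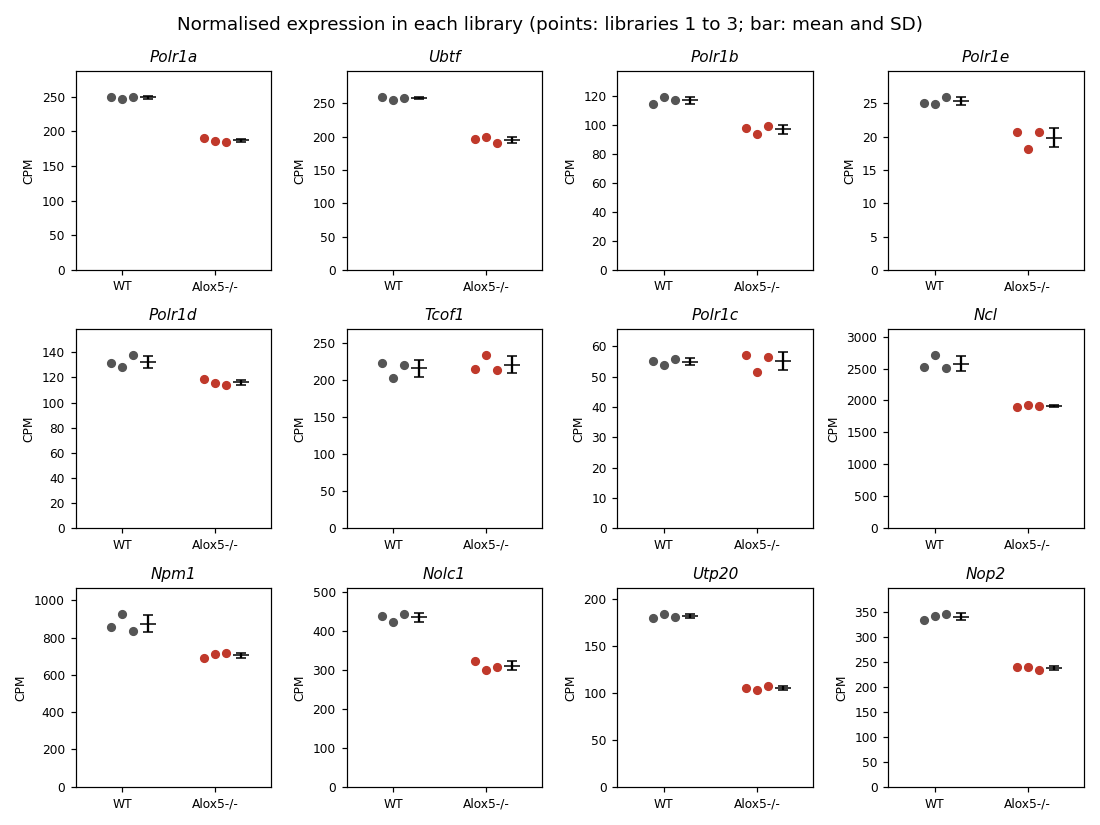
CPM of 12 of the 53 genes (y axis, from 0 in each panel) in each library of WT and Alox5-/- (x axis), with points for libraries and bars beside them for mean and SD. The Alox5-/- points lie below the WT points in the panels of Polr1a, Ubtf, Utp20 and Nop2, and overlap them in those of Tcof1 and Polr1c.

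The snoRNP proteins modify ribosomal RNA, and 7 of 8 fell. In the box C/D particles, which methylate ribose, Nop56, a scaffold protein, was at 404, 406 and 403 CPM in WT and 357, 334 and 347 CPM in Alox5-/- (-0.22 on the log2 scale, SE 0.03, edgeR adjusted p = 3e-05). Its partner Nop58 fell by 0.19 (edgeR adjusted p = 0.00112). Rrp9, specific to the U3 particle that starts small-subunit processing, went from 71.2, 65.4 and 71.6 CPM in WT to 53.4, 60.9 and 53.2 CPM in Alox5-/- (-0.32, SE 0.05, edgeR adjusted p = 0.000146). Replicate 2 was the highest Alox5-/- library for Rrp9 and the lowest WT library, and the groups still did not overlap. Fbl, the methyltransferase fibrillarin, was not called: 41.8, 38.9 and 41.4 CPM in WT and 37.9, 44.0 and 34.1 CPM in Alox5-/- overlapped (-0.074, SE 0.07, edgeR adjusted p = 0.401). Alox5-/- replicate 2 was its highest library, and without that library Fbl was called lower (-0.168, edgeR adjusted p = 0.0178).

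In the box H/ACA particles, which convert uridine to pseudouridine and also sit in telomerase, all 4 proteins fell. Nhp2, an RNA-binding core protein, was at 171, 166 and 172 CPM in WT and 130.0, 134 and 128 CPM in Alox5-/- (-0.38, SE 0.03, edgeR adjusted p = 1.85e-07). Dkc1, the pseudouridine synthase dyskerin, went from 269, 282 and 271 CPM to 225, 219.8 and 226 CPM (-0.29, edgeR adjusted p = 2.07e-06). Both drops were several times their standard errors. The other core proteins had smaller fold changes, with Nop10 at 98.0, 95.5 and 98.7 CPM in WT and 89.6, 77.8 and 88.8 CPM in Alox5-/- (-0.19, edgeR adjusted p = 0.00333) and Gar1 at -0.17 (edgeR adjusted p = 0.00209).

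Among the abundant nucleolar proteins all 4 fell, with a median of -0.37. Nolc1, a snoRNP chaperone also called Nopp140, was at 438, 422 and 444 CPM in WT and 323, 299.8 and 308 CPM in Alox5-/- (-0.49, SE 0.04, edgeR adjusted p = 2.27e-08). Ncl, nucleolin, which binds the ribosomal RNA precursor, went from 2524, 2708 and 2501 CPM to 1894, 1935 and 1906 CPM (-0.43, SE 0.04, edgeR adjusted p = 8.97e-08). Ncl alone thus accounted for the largest loss in CPM of the 53 genes. The nucleophosmin gene Npm1, a chaperone gene, had 858, 928 and 838 CPM in WT and 689, 711 and 715 CPM in Alox5-/- (-0.31, edgeR adjusted p = 5.89e-06). Ddx21, an RNA helicase of the nucleolus, showed the smallest difference of the 4, from 595, 624 and 595 CPM to 520.2, 523 and 534 CPM (-0.20, edgeR adjusted p = 5.89e-05).

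Small-subunit factors fell in 15 of 16 cases, with a median of -0.23. Utp20, a large scaffold protein of the processome that cuts the precursor RNA, had the largest fold change of the 53 genes. The gene lies at chr10:88746607-88826804 on the minus strand of mm10, and its longest annotated transcript has 62 exons. Its level was at 181, 185 and 181 CPM in WT and 105, 103 and 107 CPM in Alox5-/-, 1.73-fold lower (-0.79 on the log2 scale, SE 0.03, edgeR adjusted p = 6.08e-11), and was the only one of the 53 past 1.5-fold. None passed 2-fold. Heatr1, a processome protein that also takes part in ribosomal RNA transcription, went from 204, 205 and 197 CPM in WT to 157, 159 and 160.5 CPM in Alox5-/- (-0.35, edgeR adjusted p = 3e-07). At the other end were Wdr43 and Nop14. Wdr43, which joins the precursor early, was at 280.2, 296 and 279 CPM in WT and 263, 273 and 266 CPM in Alox5-/- (-0.091, SE 0.03, edgeR adjusted p = 0.0298). Nop14 had 129, 135 and 130.2 CPM in WT and 126, 128 and 126 CPM in Alox5-/-, groups that did not overlap but lay too close for a call (-0.053, SE 0.03, edgeR adjusted p = 0.19).

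The other 12 small-subunit genes all fell, with log2 fold changes of -0.36 to -0.12 and edgeR adjusted p from 9.36e-07 to 0.0187. The largest were Rrp12, needed for export of the subunit (-0.36), and the processome proteins Utp6 (-0.33) and Noc4l (-0.30). Utp18 (-0.24), which like Utp6 belongs to the UTP-B complex of the processome, and Wdr75 (-0.23) lay in the middle. Of the late 40S factors, the nuclease Nob1, which makes the final cut of 18S ribosomal RNA, fell by 0.23, Bysl by 0.23 and Ltv1 by 0.20. The U3-associated proteins Imp3 and Imp4 fell by 0.18 and 0.13, Utp15 by 0.16 and the helicase Ddx10 by 0.12. The calls of Wdr43 and Ddx10 were the ones most often lost under other settings.

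Large-subunit factors fell in 17 of 18 cases, with a median of -0.34. Nop2, a cytosine methyltransferase of 28S ribosomal RNA, was at 333, 342 and 346 CPM in WT and 239.7, 239.7 and 233 CPM in Alox5-/- (-0.52, SE 0.03, edgeR adjusted p = 3.88e-09), 1.43-fold lower. Gnl3, nucleostemin, a nucleolar GTPase of stem and tumour cells, went from 183, 190.4 and 188 CPM to 143, 136 and 140.0 CPM (-0.42, SE 0.03, edgeR adjusted p = 6.5e-08). In both, the gap between the groups was far wider than the spread within them. Noc2l, an assembly protein that partners Noc3l, had 361, 380.5 and 378 CPM in WT and 302, 287 and 289.9 CPM in Alox5-/- (-0.35, edgeR adjusted p = 5.15e-07). The GTPase Gnl2, related to Gnl3, was not called, at 122, 128 and 124 CPM in WT and 118, 123 and 121 CPM in Alox5-/- with overlapping groups (-0.047, SE 0.03, edgeR adjusted p = 0.263).

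The other 14 large-subunit genes all fell, between -0.46 and -0.20, with edgeR adjusted p from 2.68e-07 to 0.000656. Pes1, Bop1 and Wdr12 form the PeBoW complex, which is needed for the cuts that free 28S and 5.8S ribosomal RNA. They fell by 0.28, 0.37 and 0.33. Rrs1, which helps to place the 5S particle, had the largest fold change of the 14 (-0.46), followed by the helicase Ddx18 (-0.40) and Mrto4 (-0.39), which holds the place of a stalk protein in the unfinished subunit. Ppan fell by 0.38, Noc3l by 0.35, the helicase Ddx56 by 0.31, Nop16 by 0.30, the paralogs Rrp1 and Rrp1b by 0.31 and 0.29, Nle1 by 0.27 and Ebna1bp2 by 0.20.

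Levels differed far more between genes than between genotypes. On the scale of CPM per kb of exon, Npm1 was highest (328.2 in WT and 264.5 in Alox5-/-), followed by Ncl (253 and 187.7), Nhp2 (148 and 113.8), Noc2l (130.2 and 102.2) and Nop2 (122.8 and 85.7). The lowest were Wdr12, Fbl and Polr1e, at 9.70, 9.67 and 6.50 in WT. The median of the 53 genes in WT was 35.4 against 6.79 for the 13664 tested genes with a length, and 52 of the 53 lay above that median, all but Polr1e. Fold changes of similar size appeared at both ends of this range, in Polr1e (-0.35) and in Npm1 (-0.31). Ranks depend on the length used. With the longest transcript in place of merged exons, Fbl was at 16.9 in WT, above Noc3l at 16.5.

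**Figure D3:**
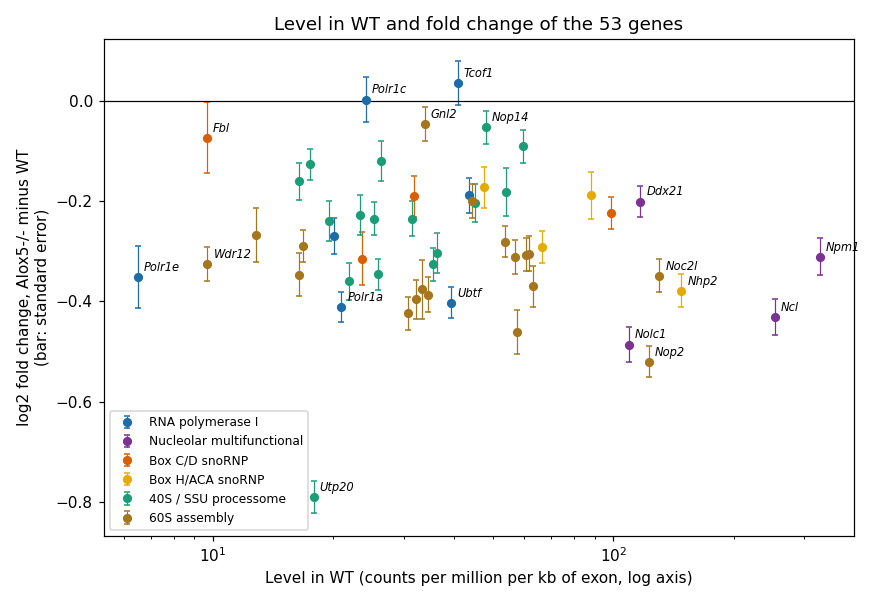
Log2 fold change (y axis, Alox5-/- minus WT) against the WT level in CPM per kb of exon (x axis, log scale) for the 53 genes, coloured by role. Npm1 and Ncl lie far right and Polr1e far left, all below 0 on the y axis.

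Other genes of the pathway were lower as well. A second list held 138 further pathway genes in the table, all of them tested. Of the 138 genes, 100 (72.5%) fell, 5 (3.62%) rose and 33 passed in neither direction. Over all genes tested, 27.0% were called lower and 26.8% higher. The median log2 fold change of the 138 genes was -0.23. Of 14 other RNA polymerase I subunits and initiation or termination factors, 8 fell and 2 rose. Cd3eap, a partner subunit of Polr1e, fell by 0.53 and the shared subunit Polr2f by 0.37. In the promoter selectivity factor SL1, Taf1d (-0.30) and Taf1c (-0.31) were lower, Taf1b was higher (0.31) and Taf1a was not called (-0.02). Among 45 other small-subunit genes, 36 fell and 1 rose. Their calls with the smallest p were Utp14a (-0.76), the 18S acetyltransferase Nat10 (-0.48), the 18S methyltransferase Emg1 (-0.42) and Lyar (-0.42). Of 48 other large-subunit genes, 37 fell and 1 rose, and the calls with the smallest p were the methyltransferase Ftsj3 (-0.55), Nifk (-0.58), Mybbp1a (-0.42) and the RNA kinase Nol9 (-0.40). In the list of 31 snoRNP assembly factors and ribosomal RNA nucleases, 19 fell and 1 rose, with the smallest p for Pop1 of RNase MRP (-0.48), the exosome subunits Exosc10 (-0.43) and Exosc2 (-0.27), and the ATPase Ruvbl1 (-0.36). The other genes that rose were Twistnb, a subunit of RNA polymerase I (0.13), the kinase gene Riok3 (0.37), Gltscr2 (0.24) and Exosc4 (0.30).

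Ribosomal protein genes encode the building blocks rather than the machinery. Their medians lay nearer to that of all genes tested than the median of the 53 genes did. Of 85 tested genes taken by symbol as cytosolic ribosomal protein genes, 24 (28.2%) fell, 59 were not called and 2 (2.35%, Rpl22l1 and Rps15a) rose. Their median was -0.06. The symbols also took in Rps19bp1 (-0.24), which encodes a binding partner and no ribosomal protein. They took in the paralogs Rpl7l1 (-0.26), Rps27l (-0.41), Rpl36al (-0.33) and Rps27rt (-0.195) too, and all 5 of these genes are among the 24. Of further paralogs, Rpl22l1 is among the 2 that rose and Rpl3l was not called. Of 77 mitochondrial ribosomal protein genes, 33 (42.9%) fell, 38 were not called and 6 (7.79%) rose, and the median was -0.12. Over all genes tested, 27.0% were called lower and 26.8% higher. The mitochondrial list thus had a larger share of lower calls than all genes tested. The cytosolic list had a similar share of lower calls, and both lists had a smaller share of higher calls. Cytosolic ribosomal protein genes have many processed pseudogenes, and 24.4 to 24.8% of all reads had aligned to more than 1 place and were not counted to a gene, so their values are uncertain. The difference between these lists and the 53 genes was not tested.

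**Figure D4:**
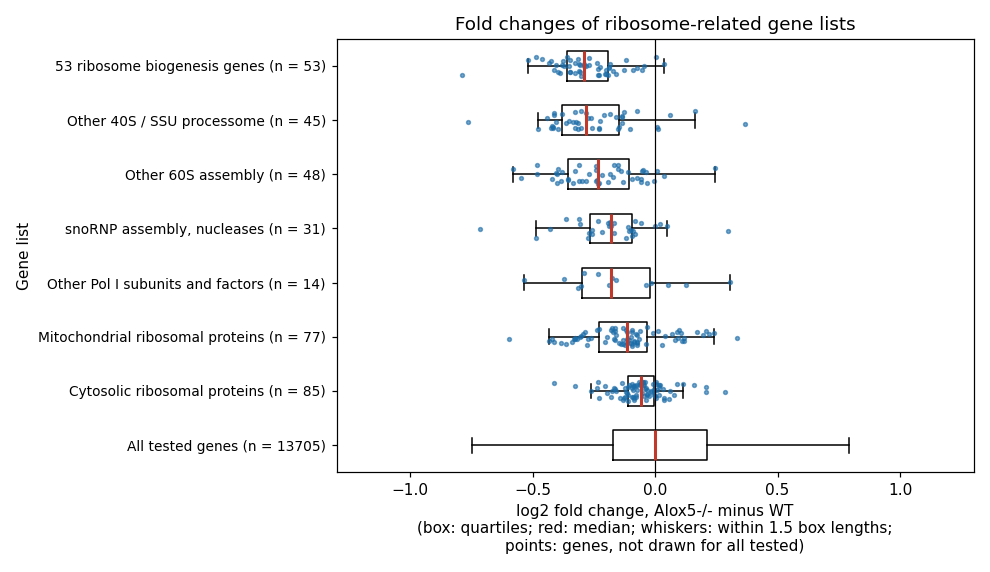
Log2 fold changes (x axis, Alox5-/- minus WT) of the 53 genes, the 4 lists of other pathway genes, the ribosomal protein genes and all genes tested (y axis), with a point for each gene (not drawn for all genes tested), boxes for quartiles and red lines for medians. The medians are -0.29 for the 53 genes, -0.28 to -0.18 for the other pathway lists, -0.12 and -0.06 for mitochondrial and cytosolic ribosomal protein genes and 0 for all genes tested.

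Myc drives many of these genes, and its protein binds the E-box CACGTG with Max. Its own mRNA rose, at 302, 278 and 295 CPM in WT and 337, 373 and 345 CPM in Alox5-/-, higher by 0.27 on the log2 scale (SE 0.04, edgeR adjusted p = 5.48e-05). Max was called lower (-0.13, SE 0.03, edgeR adjusted p = 0.00467), and Mycn had 0 counts in every library. Promoter sequences of 45 of the 53 genes were found in RefSeq (GRCm38.p6, the same assembly as mm10), each spanning 250 bases before to 50 bases after the annotated start. A gene with several annotated starts was counted once, as having a motif if any of its sequences held it. The E-box, a palindrome and so the same on both strands, was present in 8 of the 45 (17.8%: Imp4, Ltv1, Nle1, Nop2, Pes1, Utp18, Utp20 and Wdr43), in 12.1% of 9347 tested genes and in 8.1% of all 27025 genes with a promoter. In the 250 bases before the start alone, it was present in 3 of 45 (6.7%) against 10.1% and 6.9%. An ETS-type motif, CCGGAAG on either strand, which does not overlap the E-box in its letters, was present in 14 of 45 (31.1%) against 20.8% and 9.9%, and before the start alone in 9 of 45 against 16.3% and 7.8%. These shares are descriptions, and no binding was measured in these data.

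The bases directly before the start of 5 genes with large or typical fold changes follow, 5′ to 3′ on the gene's strand, with E-boxes and CCGGAAG on the printed strand in capitals. Within the bases printed, Nop2 (chr6:125131763-125131882, plus strand) holds both motifs and Utp18 (chr11:93885767-93885851, minus strand) an E-box. There, Nolc1 (chr19:46075727-46075846, plus strand) holds the ETS-type motif, and Polr1a (chr6:71908933-71909052, plus strand) and Utp20 (chr10:88826815-88826934, minus strand) hold neither.
Nop2: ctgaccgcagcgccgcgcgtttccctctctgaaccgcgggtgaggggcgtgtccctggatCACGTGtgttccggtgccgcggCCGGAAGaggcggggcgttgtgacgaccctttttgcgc
Utp18: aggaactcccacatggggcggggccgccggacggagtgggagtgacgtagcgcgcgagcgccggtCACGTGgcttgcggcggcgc
Nolc1: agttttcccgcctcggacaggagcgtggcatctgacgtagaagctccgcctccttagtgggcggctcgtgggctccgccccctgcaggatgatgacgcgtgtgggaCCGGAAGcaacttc
Polr1a: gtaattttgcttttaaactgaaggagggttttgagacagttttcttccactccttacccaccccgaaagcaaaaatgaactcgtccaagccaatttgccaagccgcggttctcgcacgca
Utp20: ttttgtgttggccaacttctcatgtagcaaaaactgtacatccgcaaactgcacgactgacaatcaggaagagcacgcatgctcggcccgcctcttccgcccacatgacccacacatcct
All 5 genes fell, with log2 fold changes of -0.52 for Nop2, -0.24 for Utp18, -0.49 for Nolc1, -0.41 for Polr1a and -0.79 for Utp20. They were picked with these values known, so nothing on the motifs follows from them. The E-box of Utp20 begins 38 bases after its start, outside the bases printed. Utp18 also has the ETS-type motif, farther before its start than the bases printed.

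Several of the 53 genes share their promoter region with a neighbour. A protein-coding gene on the other strand, starting within 1000 bases in a head-to-head arrangement, was found for 14 of the 53 (26.4%) and for 12.8% of 11589 tested protein-coding genes. The 14 neighbours were all tested, and 6 fell, 7 were not called and 1 rose (median -0.12). Over all genes tested, 27.0% were called lower and 26.8% higher, and the difference from these shares was not tested. Where Noc4l fell, its neighbour Ddx51, itself a large-subunit assembly gene counted in the list of other pathway genes, fell by 0.48, and beside Polr1a the neighbour Ptcd3 fell by 0.14. Next to Gnl3 and Bop1, which fell, Pbrm1 (-0.01) and Hsf1 (-0.02) were not called, and next to Polr1c, which was not called, Yipf3 rose by 0.17.

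Inside 7 of the 53 genes (Dkc1, Gnl3, Ncl, Nop56, Nop58, Ppan and Wdr43) lie 21 annotated small nucleolar RNA genes on the same strand. All 7 host genes fell, beside 48 of all 53 genes. The small RNAs themselves lack poly-A tails, and 19 of the 21 were at 0 counts, with 15 counts in all over the 6 libraries, so that their level cannot be compared. Several, such as those in Gnl3 and Ppan, also lie within annotated exons of their host, where reads may be set aside as ambiguous between genes. The exons of Noc2l overlap those of Samd11 on the other strand over 20.9% of their length and those of Bysl overlap Ccnd3 over 9.37%. No source used here states whether counting used the strand. If it did not, reads in these overlaps may have been set aside as ambiguous and counted to neither gene, so these values are uncertain.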

How the data were processed

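Poly-A RNA was sequenced after SMARTer cDNA amplification, per the labels' protocols, from 3 Alox5-/- and 3 WT libraries grouped by their labels. The authors deposited raw read counts per gene, for which the submitters' processing notes name HTSeq, DESeq2 and the build mm10. Aligner, versions, annotation release and strand use were not given in the sources used here. Outside library sizes and tests stayed 5 summary rows that name no gene: reads aligned to more than 1 place (24.37 to 24.79% of all reads), outside genes (9.1 to 10.19%), ambiguous (0.52 to 0.55%), not aligned (4.57 to 5.78%) and of low quality (0%). With 28985597 to 38695948 gene counts per library, 3 counts correspond to 0.0775 to 0.103 CPM.

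All genes passing edgeR's default filter were fitted in R 4.3.3 with edgeR 4.0.16 (TMM scaling, Alox5-/- minus WT by the quasi-likelihood F-test, no covariate), with Benjamini-Hochberg adjustment over 13705 genes and a threshold of 0.05. The fit was tested on simulated data. Standard errors came from the coefficient and its F statistic. CPM use TMM-scaled library sizes. Exon lengths and overlaps came from GENCODE vM21, an annotation of mm10. Alternatives were DESeq2 1.42.0, limma-voom (limma 3.58.1), other scalings and filters, each library left out, and a replicate block.

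The 53 genes, the other pathway genes and the marker lists were chosen with earlier results of these data known, and the ETS-type motif was added later than the E-box. Library values are printed for all RNA polymerase I genes and, per other role, for the 2 genes of smallest p, the largest fold change, the highest level per length and the largest adjusted p. Of each other pathway list, the 4 called genes of smallest p are named. Genes outside these rules (the other pathway genes that rose, Taf1a, Taf1c, the neighbours and the genes whose promoters are printed) were chosen after their values were seen.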

Additional observations from a re-analysis of the deposited data

How the results depend on the processing

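The count of the 53 genes called lower was 48 with edgeR and 48 with DESeq2, limma-voom, DESeq2 size factors and the replicate block, 46 with upper-quartile or total-count scaling, 47 with no filter or the stricter one (5 CPM in 3 libraries), and 46 to 49 with 1 library left out. None was called higher under any of them. Their median log2 fold change was -0.292, and -0.264 with upper-quartile scaling, -0.249 with total counts, -0.283 with no filter, -0.276 with the stricter filter and -0.298 to -0.278 with 1 library left out. The median level per length rose from 35.4 to 48.6 with the longest transcript in place of merged exons, and the cause is the shorter length by construction. Of the other pathway genes, 90 to 101 were called lower and 4 to 6 higher. Deviations of same-numbered libraries from their group means correlated at -0.042, -0.128 and -0.014 across genes, and those of differently numbered libraries at -0.077 to 0.102. The values thus showed no sign of pairing by replicate number, but with 3 libraries a group they cannot show how the libraries were made.

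Genes near 0 changed sign: Tcof1 was at -0.009 without WT replicate 2 (highest value with 1 library left out 0.06), Fbl at 0.011 without Alox5-/- replicate 3 (range with 1 library left out -0.168 to 0.011), and Polr1c at -0.024, -0.013 and -0.014 without Alox5-/- replicate 1, Alox5-/- replicate 3 and WT replicate 2 (range -0.024 to 0.053). The call of Wdr43 was lost in 7 settings (adjusted p 0.0519 to 0.233) and that of Ddx10 in 5 (0.0579 to 0.11), in each case including both scalings and the fits without Alox5-/- replicate 1, Alox5-/- replicate 3 or WT replicate 2. The cause was not tested. With 3 libraries a group and standard errors of at least 0.03, the smallest fold called among the 53 genes was 1.07, and smaller ones were not detectable.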
